A study of Homo sapiens with 6 samples.

Results

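The genes that carry a cell through G1 phase were examined in SW480 Clone 13, a human colorectal cancer line in which doxycycline switches on KIAA1199, a protein that many colorectal tumors overexpress. The 10 genes were the D-type cyclins CCND1 (probe set ENSG00000110092_at), CCND2 (ENSG00000118971_at) and CCND3 (ENSG00000112576_at), cyclin E1 (CCNE1, ENSG00000105173_at), the kinases CDK4 (ENSG00000135446_at), CDK6 (ENSG00000105810_at) and CDK2 (ENSG00000123374_at), the inhibitors CDKN1B (ENSG00000111276_at) and CDKN2A (ENSG00000147889_at), and the retinoblastoma gene RB1 (ENSG00000139687_at). They were chosen for their roles, with earlier results of these data known, and found by their Ensembl identifiers. All 10 were among the 26445 probe sets measured, with 1 probe set per gene. No filter on low signal was applied, so none of the 10 was lost. Total RNA came from 3 independent experiments, each with a doxycycline-treated culture and an uninduced culture, and each RNA was hybridized to 1 Affymetrix Human Exon 1.0 ST array, which reads a gene through probes in many of its exons.

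Doxycycline was given for 48 h, at 50 ng/ml by the sample labels and at up to 200 ng/ml by the study's methods. All 6 cultures, uninduced ones included, carried the tetracycline repressor from pcDNA6TR and the pT-Rex-DEST30-KIAA1199 construct, and were kept in blasticidin S and G418. The line is a single clone, and no culture without the construct received doxycycline, so effects of KIAA1199 and of doxycycline itself cannot be told apart. The study's methods cite earlier work in which such doses left transcript levels on microarrays unchanged, which was not tested here. The level of KIAA1199 and markers of colon epithelium were not analysed here, because the tables used do not pair their symbols with the identifiers of the arrays. The same holds for other G1 genes, such as CDKN1A, CCNE2 and the E2F factors. For KIAA1199 the paper reports higher RNA and protein with doxycycline in this clone. In bulk RNA, a change in the share of cells in a phase of the cycle and a change in the RNA of each cell cannot be told apart.

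In G1, mitogens and, in the colon, Wnt signals raise the D-type cyclins, which bind and activate CDK4 and CDK6. These kinases phosphorylate the RB1 protein, which otherwise holds E2F transcription factors inactive, and the freed E2F factors switch on CCNE1 and the genes of DNA synthesis. Cyclin E with CDK2 completes the phosphorylation of RB1, while CDKN1B (p27) restrains cyclin-kinase complexes and the INK4 product of CDKN2A (p16) blocks CDK4 and CDK6. CCND1 is a widely studied target of CTNNB1 and TCF in colorectal cancer.

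Among the 10 genes, CCND1 alone passed the limits that the study used to select genes, when these were put on the limma p. None of the 10, CCND1 included, is in the study's own list of genes selected with these limits. That list came from the study's paired test on its own transcript clusters, and not from limma on the 26445 probe sets used here. The limits ask for a fold change of 1.2 or more with an unadjusted p under 0.025. CCND1 was 1.21-fold higher with doxycycline, and CCND3, with nearly the same fold change of 1.197, stood just under the fold limit. RB1 was lower by 1.13-fold and CCNE1 by 1.11-fold, in all 3 experiments each but not past the limits, and the other 6 genes differed by less than 1.09-fold. The 1 of 10 genes past the limits compares with a background of 5.83% of all 26445 probe sets, or 2.90% counting only those that rose, and a single gene in 10 is not a result about the group. No gene of the group had a Benjamini-Hochberg adjusted p under 0.05 in limma (0 of 10), and 0% of all probe sets had one. At an unadjusted p under 0.05 there were 2 of the 10 genes with limma, against 12.3% of all probe sets, and 3 with the methods' t-test, against 10.4%. None of the 10 passed both limits in the methods' t-test, where 2.18% of all probe sets did.

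**Figure D1:**
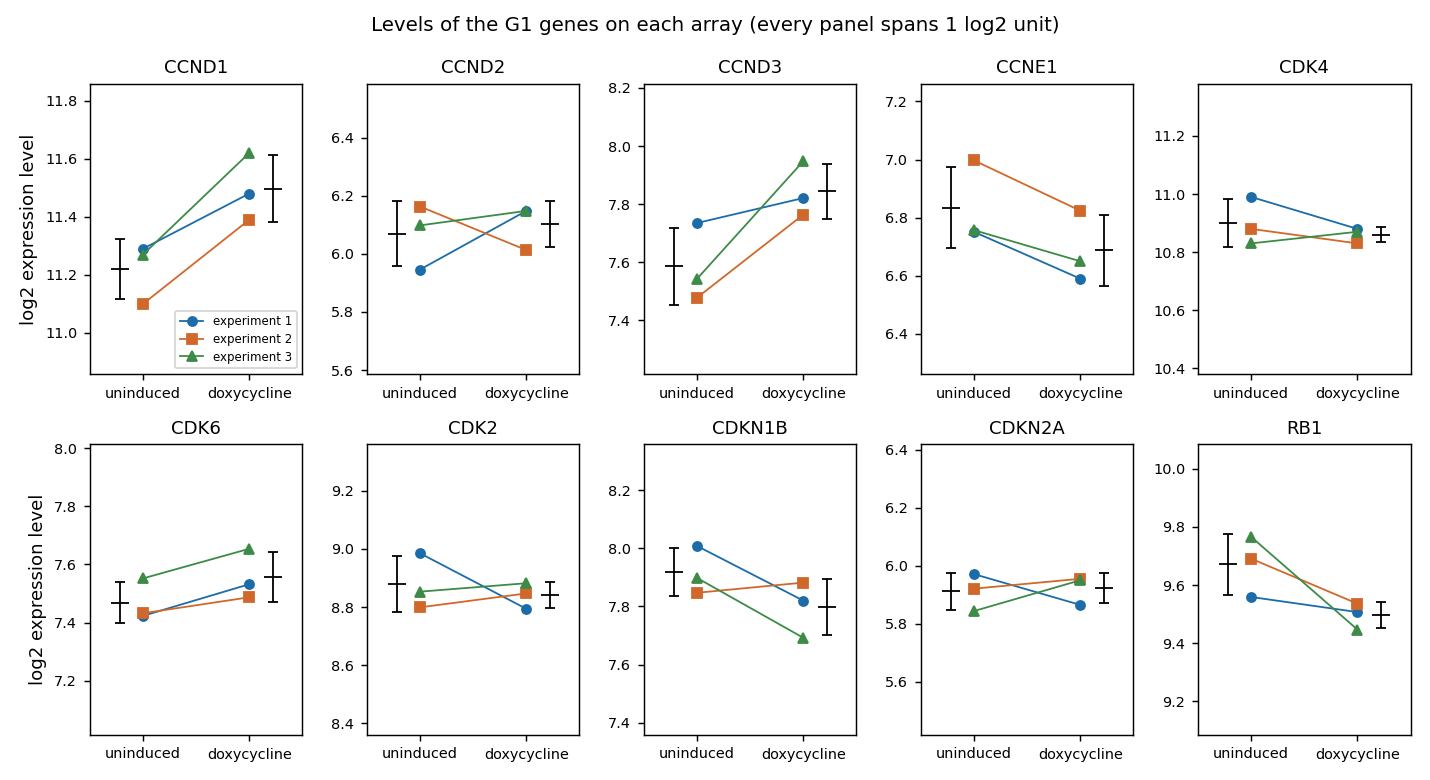
Log2 expression level of each of the 10 genes on the 6 arrays, with a line joining the uninduced and the doxycycline array of each experiment, and the mean ± SD (n = 3) as a black bar beside each group. Every panel spans 1 log2 unit; the doxycycline arrays lie above all uninduced arrays for CCND1 and CCND3 and below them for RB1, and overlap with them for the other 7 genes.

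CCND1 and CCND3 were higher in all 3 experiments, and CCND2 in 2 of them. CCND1 had log2 levels of 11.29, 11.10 and 11.27 in the uninduced cultures of experiments 1, 2 and 3, and of 11.48, 11.39 and 11.62 in the doxycycline cultures. Every doxycycline culture was above every uninduced culture, and the smallest of the changes, 0.19 in experiment 1, was as large as the whole range of the uninduced levels, 0.19. The mean level went from 11.22 ± 0.10 (SD, n = 3) to 11.50 ± 0.12 (SD, n = 3). The log2 fold change was 0.28 (standard error 0.07, unadjusted p = 0.015 and adjusted p = 0.35 in limma with the experiment as a block), with a 95% confidence interval from 0.09 to 0.47, that is, from 1.06-fold to 1.38-fold. In the methods' t-test, paired over the experiments, CCND1 did not pass the limit on p, and neither did it in limma when any of the 3 experiments was left out, although its log2 fold change stayed between 0.24 and 0.32. The signal of CCND1 was above that of 99.8% of the probe sets, and the median change of the tenth of probe sets with the highest signal was -0.001, a value that the normalization between arrays holds near 0. Whether the high signal had a part in the change was not tested.

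CCND3 had log2 levels of 7.74, 7.48 and 7.54 without doxycycline and of 7.82, 7.76 and 7.95 with it. Again no doxycycline culture fell within the range of the uninduced ones, but the changes were less even, with 0.09, 0.29 and 0.41 in experiments 1, 2 and 3. The log2 fold change was 0.26 (standard error 0.09, unadjusted p = 0.044 and adjusted p = 0.40 in limma), with a 95% confidence interval from 0.01 to 0.51. CCND3 missed the fold limit, 0.263 on the log2 scale, by only 0.004, and missed the limit on p as well. In both CCND1 and CCND3 the change was largest in experiment 3 and smallest in experiment 1.

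CCND2, the third D-type cyclin, differed by 0.20, -0.15 and 0.05 in the 3 experiments, and its levels, between 5.95 and 6.16 over all 6 arrays, overlapped fully between the groups. Its log2 fold change was 0.03, and the 95% confidence interval, from -0.23 to 0.29, holds the size seen for CCND1. Set side by side within each experiment, the change of CCND1 exceeded that of CCND2 by -0.01, 0.44 and 0.30, and that of CCND3 by 0.10, 0.00 and -0.06. Of 5 pairs of genes compared in this way with an exact sign-flip permutation test, two-sided, none passed (adjusted p from 0.63 to 0.75), but 3 experiments cannot give a p under 0.25, so the test could not have told the responses of 2 genes apart.

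CCNE1 was lower with doxycycline in every experiment, by amounts that hardly varied. Its log2 levels were 6.75, 7.00 and 6.76 in the uninduced cultures and 6.59, 6.82 and 6.65 in the doxycycline cultures. The groups overlapped, because both cultures of experiment 2 stood above those of the other experiments, but within each experiment the doxycycline culture was the lower, by 0.16, 0.17 and 0.11. The log2 fold change was -0.15 (standard error 0.06, adjusted p = 0.45 in limma), with a 95% confidence interval from -0.32 to 0.02. Its 3 changes had an SD of 0.04, against a median of 0.14 over all probe sets and 0.11 in decile 8 of the signal, to which CCNE1 belongs. An SD of 3 values is itself imprecise. CCNE1 was among the 3 genes with an unadjusted p under 0.05 in the methods' t-test, with CCND1 and CDK6 (10.4% of all probe sets had one), while its fold change was well under the limit. CCND1 was higher and CCNE1 lower in every experiment, so the change of CCND1 exceeded that of CCNE1 in all 3, by 0.35, 0.46 and 0.46. With those signs the exact sign-flip permutation test could only give its smallest possible p of 0.25 (0.63 adjusted over the 5 pairs), which adds nothing to them.

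RB1 stood at log2 levels of 9.56, 9.69 and 9.77 without doxycycline and of 9.51, 9.54 and 9.45 with it. All doxycycline cultures were below all uninduced ones, but the gap between the lowest uninduced and the highest doxycycline culture was only 0.02, against 0.10 for CCND1 and 0.03 for CCND3. The changes of -0.05, -0.16 and -0.32 were as uneven as those of CCND3 and likewise largest in size in experiment 3. The log2 fold change was -0.18 (standard error 0.08, adjusted p = 0.48 in limma), with a 95% confidence interval from -0.40 to 0.05, that is, from 0.76-fold to 1.04-fold.

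**Figure D2:**
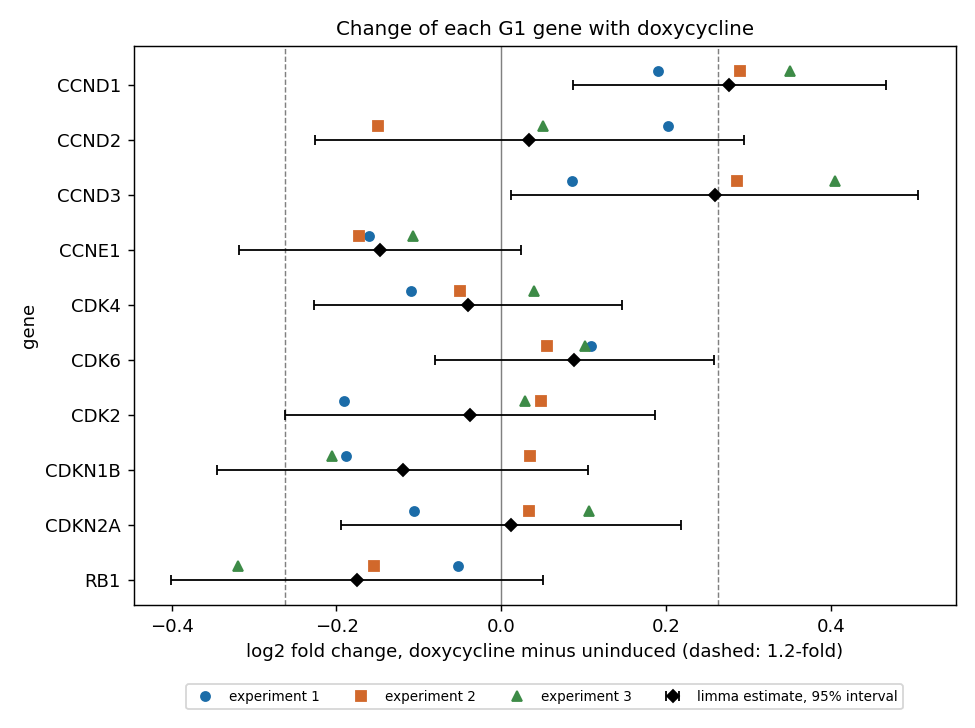
Log2 fold change of each gene, doxycycline minus uninduced, in experiments 1, 2 and 3 (coloured symbols) and as the limma estimate with its 95% confidence interval (black diamonds and bars); the dashed lines mark a fold change of 1.2. The intervals of CCND1 and CCND3 lie above 0, those of the other 8 genes include 0, and CCND1, at 0.28, is the only estimate beyond a dashed line.

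The mean changes of the kinases were small, but the intervals reached close to a 1.2-fold rise for CDK6 and a 1.2-fold fall for CDK2. CDK4, which D-type cyclins activate, had log2 levels between 10.83 and 10.99 on all 6 arrays, and differed by -0.11, -0.05 and 0.04 in experiments 1, 2 and 3. Its 95% confidence interval, from -0.23 to 0.15, corresponds to fold changes between 0.85 and 1.11, so a rise as large as the 1.21-fold of CCND1 lay outside it. CDK6, the close relative of CDK4, was higher in all 3 experiments, by 0.11, 0.06 and 0.10, yet its levels of 7.42, 7.43 and 7.55 without doxycycline and 7.53, 7.49 and 7.65 with it overlapped. The log2 fold change of CDK6 was 0.09, with an interval from -0.08 to 0.26 (adjusted p = 0.62 in limma). The change of CDK6 exceeded that of CDK4 by 0.22, 0.11 and 0.06, again with the smallest exact sign-flip permutation p of 0.25. CDK2, the partner of cyclin E, differed by -0.19 in experiment 1 and by 0.05 and 0.03 in experiments 2 and 3, with a mean of -0.04 and an interval from -0.26 to 0.19.

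The inhibitors gave no shared direction. CDKN1B was lower by 0.19 and 0.21 in experiments 1 and 3 and higher by 0.04 in experiment 2, and its levels of 8.01, 7.85 and 7.90 without doxycycline overlapped with those of 7.82, 7.88 and 7.69 with it. Its log2 fold change was -0.12 (standard error 0.08, adjusted p = 0.61 in limma), with an interval from -0.34 to 0.11. CDKN2A had the mean change closest to 0 of the 10 genes, 0.01, from changes of -0.11, 0.03 and 0.11 in the 3 experiments, and an interval from -0.19 to 0.22. The value of CDKN2A covers the whole gene, which encodes the INK4 inhibitor and ARF from partly shared exons, and does not tell these products apart. CDKN2A and CCND2 had the lowest signals of the group, above those of 55.2% and 58.6% of the probe sets, while the signals of the other 8 were above those of at least 71.2%.

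Over the group, 3 genes (CCND1, CCND3 and CDK6) were higher and 2 (CCNE1 and RB1) lower in all 3 experiments, while 5 had mixed signs. Of all probe sets, 18.9% were higher and 17.6% lower in all 3 experiments, 36.5% together, so 5 of 10 is not far from the background. The groups of arrays did not overlap for 3 of the 10 genes, 2 of them higher and 1 lower with doxycycline, against 8.64% higher, 7.93% lower and 16.6% in all among the probe sets. Of the 10 log2 fold changes 5 were above and 5 below 0, with a median of -0.01, against 0.00 for all probe sets, and the median size was 0.10 both for the group and for all probe sets. The change of CCND1 was larger in size than that of 86.0% of all probe sets and that of CCND3 larger than 84.2%, so that many probe sets outside the group moved further.

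**Figure D3:**
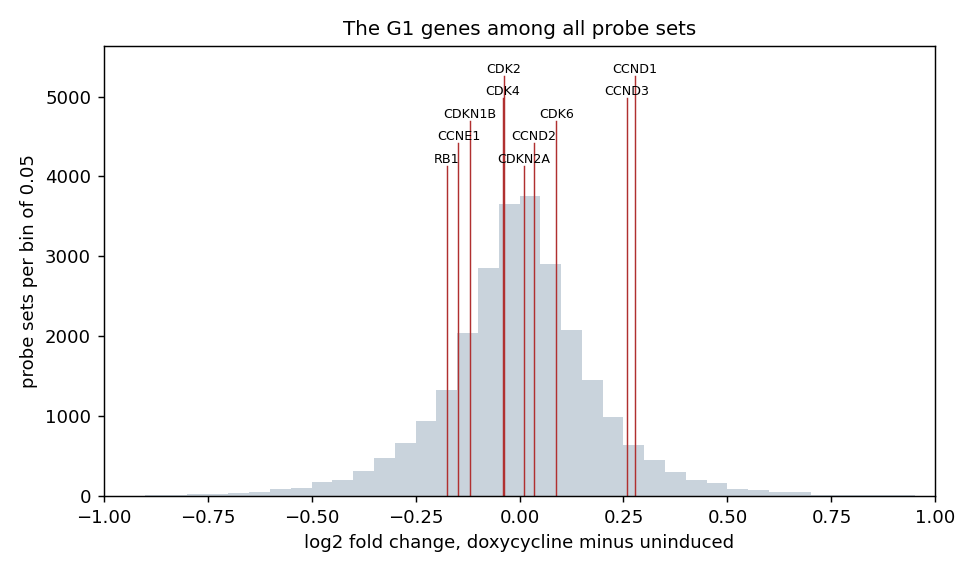
Log2 fold changes of all 26445 probe sets (grey bars, bins of 0.05; the 54 beyond 1 in either direction are outside the axis) with the 10 genes marked by red lines, whose height only spaces the names. The genes lie in the central part of the distribution, between the -0.18 of RB1 and the 0.28 of CCND1.

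How the levels varied over the 6 arrays differed from gene to gene. For CCND1, CCND3 and RB1, 70.2%, 65.3% and 63.9% of the variance lay between the treatments. These are the genes whose groups of arrays did not overlap, so their shares are no separate result. For CCNE1 and CDK6 most of it, 66.8% and 65.9%, lay between experiments, and what remained after both was only 1.22% and 2.32%. For these genes both cultures of an experiment were high or low together. For CDKN2A, CCND2 and CDK2, 86.1%, 80.6% and 72.3% of the variance followed neither the treatment nor the experiment. The shares describe these 6 arrays and were not tested. They were not computed over all probe sets, so there is no background to set beside them.

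**Figure D4:**
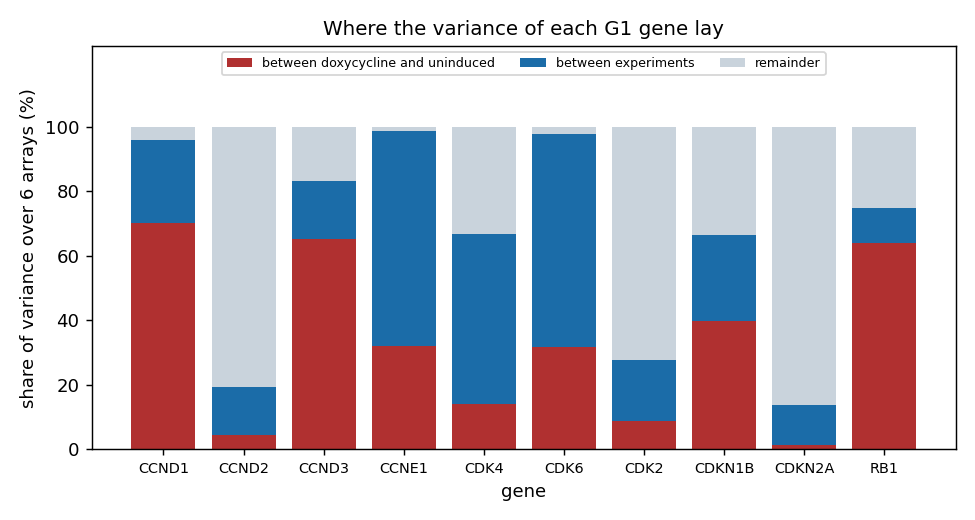
Share of the variance of each gene's log2 level over the 6 arrays, in percent, that lay between the treatments (red), between the 3 experiments (blue) and in the remainder (grey). The treatment share is highest for CCND1, at 70.2%, and lowest for CDKN2A, at 1.43%.

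The promoters of CCND3 and CCNE1 are shown because these cyclins differed in opposite directions in all 3 experiments and act in succession in G1. They are the 250 bases before an annotated start in RefSeq (GRCh38.p14), 5′ to 3′ on the strand of the gene, with capitals for the GC box (GGGCGG) and the CCAAT box (CCAAT), each searched on both strands. For CCND3, on the minus strand at chr6:41941809-41942058, the start is 1 of 3 at hand, 108227 bases inside the longest extent of the gene, and the array value, which covers the whole gene, does not tell them apart. The promoter of CCNE1 lies on the plus strand at chr19:29811741-29811990.
CCND3: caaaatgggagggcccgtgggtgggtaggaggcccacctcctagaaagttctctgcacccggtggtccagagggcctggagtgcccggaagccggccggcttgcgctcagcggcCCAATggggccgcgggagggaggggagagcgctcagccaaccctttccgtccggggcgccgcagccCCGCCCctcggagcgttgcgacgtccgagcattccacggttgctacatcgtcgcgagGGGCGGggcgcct
CCNE1: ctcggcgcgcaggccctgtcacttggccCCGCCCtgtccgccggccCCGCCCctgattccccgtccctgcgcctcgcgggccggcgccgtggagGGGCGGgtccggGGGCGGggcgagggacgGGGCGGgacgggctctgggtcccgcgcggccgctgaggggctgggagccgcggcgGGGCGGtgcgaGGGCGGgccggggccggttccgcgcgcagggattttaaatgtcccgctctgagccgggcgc

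The window of CCNE1 holds 39 CpG and the CCND3 window shown 26, against a median of 11 over 34943 promoters of the same length. The other windows of CCND3 hold 26 and 3 CpG, so what holds for the window shown need not hold for the others. The window of CCNE1 holds 7 GC boxes and no CCAAT box, and the CCND3 window shown holds 2 GC boxes and 1 CCAAT box, where the others hold 5 and none, or none and 1. A GC box was found in the windows of 42.5% and a CCAAT box in those of 32.0% of all promoters. Windows were at hand for 7 of the 10 genes (not for CCND1, CCND2 and CDK2). That of RB1 precedes a start 172699 bases inside the gene, with 0 CpG and no GC box, so the promoter at the first base of RB1 was not searched. The other 6 genes had a GC box in at least 1 of their windows, which is a count per gene and not comparable with the 42.5%, a share of windows. CCND3, CDK6 and CDKN2A had more than 1 window, and each of them had a window without a GC box. The counts also did not allow for GC content, which was 81.2% for CCNE1 and 71.2% for the CCND3 window shown, against a median of 58%. Neither the E2F words TTTCGCGC, TTTCCCGC, TTTGGCGC and TTTGCCGC, found in 2.77% of all promoters, nor the TCF/LEF word CTTTG followed by AA, AT, TA or TT, found in 12.0%, occurred in the windows of these 6 genes or in the internal window of RB1, on either strand. These counts describe the letters of these windows only.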

How the data were processed

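The authors deposited log2 expression levels, 1 per probe set and array, from Affymetrix GeneChip Human Exon 1.0 ST arrays, and the submitters' processing notes name RMA. The 6 arrays share nearly the same distribution of values, so they had been normalized to each other, which removes any shift common to all genes. Background correction and annotation version are not given in the sources used here. Levels of 10 and above are given to 0.01. All per-sample columns were used, and precision is set by the 3 arrays per group, while detection calls were not used.

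Groups and experiment numbers came from the sample titles. The log2 fold change, doxycycline minus uninduced, was tested two-sided with limma 3.58.1 in R 4.3.3 (lmFit, eBayes) over all 26445 probe sets, with the experiment as a block because the study's test was paired, and adjusted by Benjamini-Hochberg. Intervals are 95% intervals of that fit. The paired test of the study's methods, called the methods' t-test, used the same values. The fits were tested on simulated data with known changes. All of these were larger than the changes of the 10 genes, so that test does not cover changes of the sizes seen here. The 10 genes, their symbols and the lists for comparison were chosen with earlier results of these data known. Each of the 10 was named. Planned lists of other G1 genes, E2F targets and cell type markers could not be analysed, since no table used here pairs their symbols with Ensembl identifiers. Alternatives changed the block, the test, the variance prior, the filter on dim probe sets, the normalization, the fold limit and the experiments kept.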

Additional observations from a re-analysis of the deposited data

How the results depend on the processing

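The single gene past the study's limits in limma, CCND1, was past them in 7 of the 11 alternatives run for each gene. The count was 0 with the methods' t-test and with a fold change minimum of 1.5, and it ranged from 0 to 0 when each experiment was left out, where fewer arrays were fitted. It was 1 with no fold change minimum. Centring the arrays and a further quantile normalization test little, as the arrays already share a distribution. The other 9 genes were past the limits in no alternative. Of the 10 genes, 0 had an adjusted p under 0.05 in limma or in any of the 11 alternatives, with adjusted p for CCND1 from 0.17 (a variance prior that follows the level) to 0.63 (without experiment 2). Under these alternatives CCND3 stayed between 0.19 and 0.35, CCNE1 between -0.17 and -0.13 and RB1 between -0.24 and -0.10 on the log2 scale. With each experiment left out in turn, CCND2 ranged from -0.050 to 0.126, CDK2 from -0.081 to 0.0385 and CDKN2A from -0.036 to 0.070, so that their signs depend on which experiments are kept. In the same fits CDKN1B ranged from -0.197 to -0.077, CDK4 from -0.080 to -0.005 and CDK6 from 0.079 to 0.106, with no change of sign. The median over the 10 genes was between -0.05 and 0.02.

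Without the replicate block the count past the limits was again 1, with CCND1 the gene past them, against 3.97% of all probe sets, and the lowest adjusted p of the 10 genes was 0.49. Deviations from the group means over all probe sets correlated with an r of 0.04, 0.05 and 0.13 between arrays of the same experiment. Between an uninduced and a doxycycline array of different experiments, r lay between -0.09 and 0.04. The values for the same experiment were too low to settle the pairing. Depth has no counterpart on these arrays. The median SD of the changes over the experiments was 0.26 in decile 1 of the signal, the dimmest, and 0.09 in decile 10, to which CCND1, CDK4, CDK2 and RB1 belong.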
